A study of Mus musculus with 19 samples.

Results

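This account sets splenic germinal centre B cells against splenic naive B cells from mice labelled as Pik3cg knockouts, as 4 germinal centre libraries and 3 naive libraries taken by their sample titles from a series of 19. The mice had been given sheep red blood cells intraperitoneally and were sampled on day 28. Germinal centre cells were sorted as CD95+ GL7+ and naive cells as CD3- B220+ IgD+, so the surface proteins CD95 (gene Fas), B220 (Ptprc) and IgD (Ighd) were used to choose the cells. The libraries labelled wild type, 3 of germinal centre and 3 of naive B cells, received the same immunization and sorts and are used only where named. The labels do not give the mouse strain, age, the part of Pik3cg that was deleted, whether the deletion was limited to a cell type, or which libraries came from the same mouse. In the naive table the columns of the samples labelled wild type are headed HET, while those of the knockout samples are headed KO.

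A germinal centre is a site within a B cell follicle where activated B cells divide, mutate their antibody genes and compete for survival signals. Cells cycle in a dark zone, which is rich in dividing cells, and are tested for antigen binding in a light zone. Naive follicular B cells are resting cells that recirculate between blood and lymphoid organs, and they carry IgM and IgD that have not been mutated by this reaction.

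Expression was deposited as counts per 1000000 assigned reads (CPM) in separate tables, one for germinal centre and one for naive B cells. Of 17939 and 19416 listed genes, 15235 names occurred once in both. After immunoglobulin genes and Jchain were set aside, the remaining 14993 genes were rescaled to the same total in every library, and 8802 with a mean of 10 or more rescaled CPM over the 7 libraries were compared. Depth, read from the CPM worth of 1 read, was 16.5 to 19.0 M reads (1 M is 1000000) in the germinal centre libraries and 10.2 to 15.0 M in the naive libraries. Because cell type and table coincide, the difference between them could not be tested. A gene is called higher or lower here when the means of log2(rescaled CPM + 1) differed by 2 or more, which is 4-fold, and no library of one group fell within the range of the other. The standard error (SE) given with a log2 difference describes the spread between libraries only. This scale understates the change of genes with low values.

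By this rule 888 genes (10.1% of those compared) were higher and 1065 genes (12.1%) were lower in germinal centre than in naive B cells, 22.2% in either direction, with a median log2 difference over all compared genes of -0.02. Without regard to size, 48.3% of genes did not overlap between the groups. Pearson correlations of log2 values across genes were 0.719 to 0.781 between germinal centre libraries, 0.897 to 0.913 between naive libraries and 0.383 to 0.436 between the cell types, and genes are not independent replicates. The tables also differed in rows for pseudogenes, the inactive copies of genes. Their share was taken over all names listed once in the same table, shared or not, without immunoglobulin genes and Jchain. It was 5.81 to 6.32% in the germinal centre libraries and 17.2 to 18.0% in the naive libraries. The split was alike in the libraries labelled wild type, at 5.88 to 6.89% in germinal centre and 17.9 to 19.4% in naive B cells. An alternative chosen after the data were seen therefore summed 2807 pseudogenes and intronless copies into the 1270 genes they resemble most. With copies summed, 791 genes (9.95% of 7946) were higher and 595 (7.49%) lower, and of the genes called with rows as deposited 782 were still higher and 572 still lower. For each list described here whose count of called members changed with copies summed, that count is given.

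Pik3cg, which encodes the gamma catalytic subunit of class I phosphoinositide 3-kinase (ENSMUSG00000020573, mm10 chromosome 12, 32173473 to 32208659, minus strand), was read in all 7 libraries labelled knockout. It stood at 69.3, 57.7, 7.23 and 10.1 rescaled CPM in germinal centre B cells and at 102, 137 and 105 in naive B cells. Germinal centre libraries 3 and 4 were far below the other two, and all 4 lay below the naive libraries. The log2 difference was -2.21 (SE 0.81), inside the 4-fold rule, and it was -1.68 without germinal centre replicate 3 and -1.82 without replicate 4, outside it. In the libraries labelled wild type Pik3cg averaged 41.9 ± 19.6 in germinal centre and 121 ± 2.84 in naive B cells (SD, n = 3 each). Transcript outside the deleted part can remain, so these values do not check the labelled genotype. The label is kept as a label throughout.

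The sorted populations carried the markers of their gates. The summed level of 10 general B cell markers was 48046 to 49258 rescaled CPM in germinal centre and 50119 to 53117 in naive libraries, and none of the 10 was called. All 9 germinal centre markers were higher, with sums of 3239, 2663, 3461 and 3639 in germinal centre against 69.1, 103 and 77.8 in naive libraries. All 8 naive follicular markers were lower, with sums of 560, 919, 781 and 446 in germinal centre against 7084, 6528 and 6040 in naive libraries. Fas, a gate marker, read 267, 272, 315 and 234.01 in germinal centre against 12.0, 16.0 and 6.07 in naive cells and is a check of the sort only.

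RNA of other cells also differed. The sum of 21 T cell markers was 1596, 3026, 1576 and 1557 in germinal centre libraries against 113, 115 and 99.6 in naive libraries, with 14 of 16 compared markers higher and 3 listed at 0 in every naive library. Cd3g, part of the T cell receptor complex, averaged 193 ± 74.6 in germinal centre (SD, n = 4) and 1.55 ± 0.99 in naive libraries (SD, n = 3). The naive gate selected against CD3, and the germinal centre gate as labelled names no T cell marker. Monocyte and macrophage markers summed to 2993, 1096, 369 and 1054 in germinal centre against 73.0, 88.9 and 86.5 in naive libraries, with 7 of 17 higher. Erythroid marker sums overlapped, at 33 to 3136 in germinal centre and 58 to 563 in naive libraries, and the highest was germinal centre replicate 1. Both dendritic cell markers compared and the single NK cell marker compared were higher. No neutrophil or stromal marker compared was called, and no platelet marker reached the level to be compared. Stromal marker sums went the other way, at 50.6 to 148 in germinal centre against 256 to 267 in naive libraries. In bulk libraries, fewer cells of a type and less RNA per cell cannot be told apart. The part of these cells in the differences described here was not tested. Of the genes called higher, 24 were themselves listed markers of other cells, and leaving the listed markers out gives 864 higher and 1065 lower. That count follows from the list alone and does not measure the part of such cells. Unlisted genes of these cells stay in it.

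The germinal centre programme was high in every germinal centre library. Of 23 compared genes of a germinal centre list, 14 were higher and 1 lower, against 10.1% and 12.1% of all genes, with a median log2 difference of 2.50. Rgs13, which shortens chemokine receptor signals (mm10 chromosome 1, 144138654 to 144177372, minus strand), read 1197, 793, 1280 and 1442 in germinal centre against 8.51, 18.6 and 24.3 in naive libraries, a log2 difference of 6.10 (SE 0.46). Every germinal centre library was far above every naive one. Gcsam, a germinal centre adaptor protein, read 361, 384, 455 and 626 in germinal centre and 6.20, 18.1 and 7.16 in naive libraries (log2 difference 5.42, SE 0.48).

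Bcl6, the repressor that germinal centre B cells require (mm10 chromosome 16, 23965052 to 23988852, minus strand), was lower in level than those genes and had the smaller difference. It read 47.8, 38.2, 29.1 and 32.7 in germinal centre against 4.73, 2.58 and 13.0 in naive libraries, a log2 difference of 2.50 (SE 0.60). S1pr2, a receptor that confines germinal centre B cells to the follicle, read 55.3, 35.7, 72.8 and 63.0 against 10.5, 16.1 and 6.99 (log2 difference 2.27, SE 0.38). Neither gene overlapped between groups, but both sit close to the 4-fold line. With a pseudocount of 5 the log2 differences were 1.91 for Bcl6 and 1.93 for S1pr2, and without naive replicate 3 that of S1pr2 was 2.00, just under the line.

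Other members of this list were at or near 0 in naive cells. Nuggc, a nuclear GTPase of germinal centre B cells, read 222.6, 189, 187 and 227 in germinal centre and 3.26, 0 and 1.01 in naive libraries, a log2 difference of 6.66 (SE 0.61). Ezh2, the methyltransferase of Polycomb complex PRC2, read 178, 125, 197 and 270 against 2.10, 6.88 and 3.20, a log2 difference of 5.31 (SE 0.46). Tox, a DNA-binding protein also expressed by T cells, read 121, 169, 163 and 129 in germinal centre libraries and 0, 0 and 4.89 in naive libraries, beside the T cell marker sums above (log2 difference 6.33, and 7.18 without naive replicate 3). Cd38, which is low on mouse germinal centre B cells, was the 1 member called lower, at 205, 178, 299 and 164 in germinal centre against 981, 1010 and 970 in naive libraries (log2 difference -2.26, SE 0.19).

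**Figure D1:**
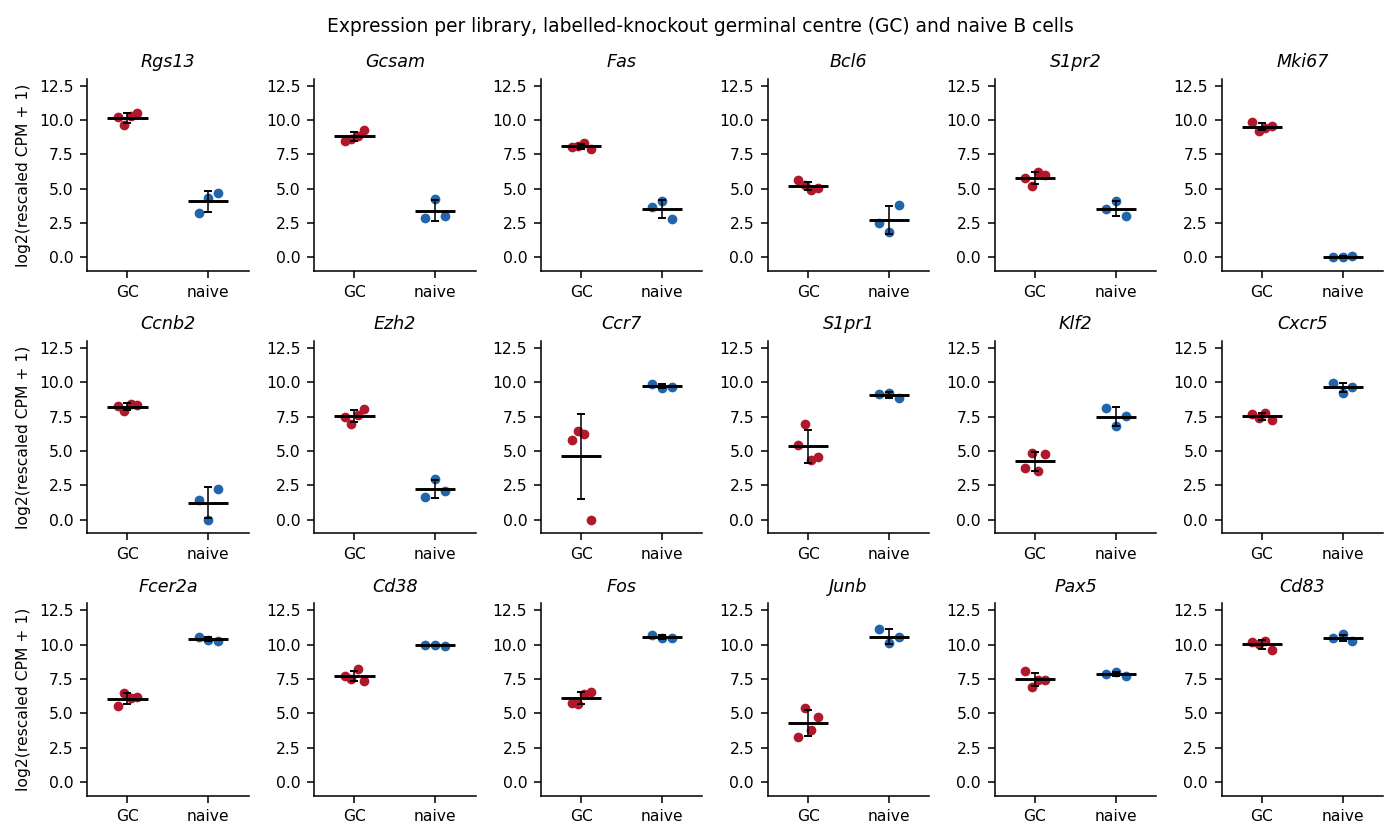
Expression of 18 genes in each library. Points are libraries (4 germinal centre, GC, on the left and 3 naive on the right of each panel), the y axis is log2(rescaled CPM + 1), the bar is the mean and the whisker 1 SD. Rgs13, Gcsam and Mki67 are high in all 4 germinal centre libraries, S1pr1, Klf2 and Fos are high in all 3 naive libraries, and Pax5 overlaps.

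Of 23 genes acting in somatic hypermutation and class switching, 7 were higher and none was lower (median log2 difference 1.60), and with copies summed 6 were higher. The members described act in DNA repair. Exo1, an exonuclease of mismatch repair, read 60.4, 31.7, 60.0 and 5.68 in germinal centre and 1.26, 0 and 3.62 in naive libraries, a log2 difference of 3.78, or 4.51 without germinal centre replicate 4. Hmces, which protects abasic sites in DNA, read 526, 268, 491 and 463 in germinal centre and 67.8, 58.1 and 59.8 in naive libraries, a log2 difference of 2.76 (SE 0.23). For Rev3l, the catalytic subunit of the translesion polymerase zeta, the values were 57.1, 54.3, 127 and 54.3 in germinal centre and 12.5, 1.86 and 34.8 in naive libraries. Its log2 difference of 2.63 (SE 1.10) was 1.65 without naive replicate 2 and 3.47 without naive replicate 3.

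Heavy-chain constant genes, taken as shares of their own sum within a library, also separated the cell types. Switched classes (Ighg, Igha and Ighe genes) made up 26.1, 68.8, 60.9 and 59.1% in germinal centre libraries and 5.65, 8.68 and 4.29% in naive libraries. The share in germinal centre replicate 1 was well under that of the other germinal centre libraries, and all 4 lay above the naive ones. Igha alone took 3.23, 42.5, 39.9 and 29.1% in germinal centre against 5.11, 8.10 and 3.69% in naive libraries, so replicate 1 fell below every naive library for this class. Ighd took 0.55, 1.05, 0.59 and 0.20% in germinal centre against 34.2, 35.4 and 35.7% in naive libraries, which were sorted for IgD. That gate bears on the low switched shares of the naive libraries too, which are therefore not a result apart from the sort. Transcripts of these genes are very abundant in antibody-secreting cells, whose marker sums are given with the plasma cell genes.

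**Figure D2:**
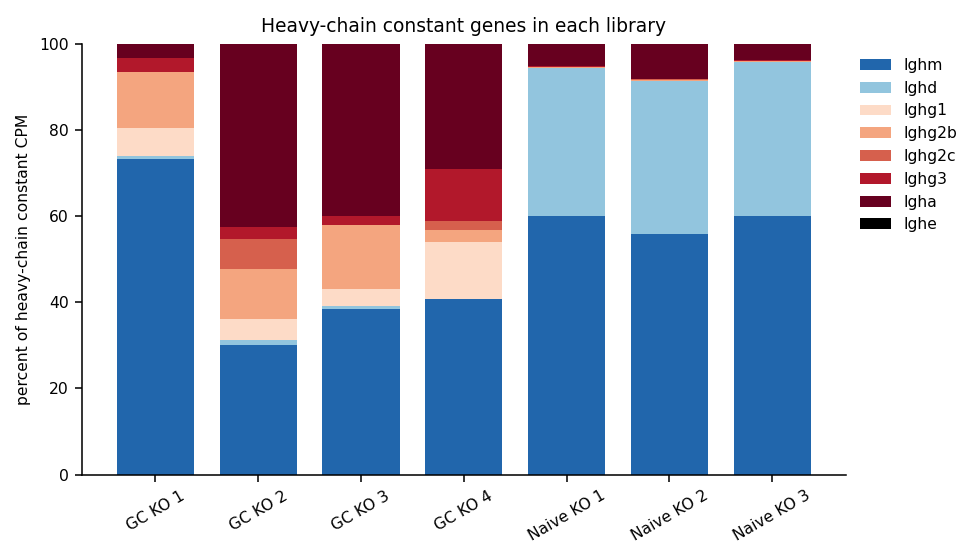
Shares of heavy-chain constant genes in each library. The y axis is the percentage of the summed CPM of 8 constant genes, each bar is 1 library (germinal centre, GC, then naive) and colours are genes. Igha is large in 3 of the 4 germinal centre bars. Ighd is barely visible in the germinal centre bars and fills 34.2 to 35.7% of the naive bars.

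Genes of cell division showed the most uniform pattern. All 32 compared genes of mitosis and the G2/M phase were higher, with a median log2 difference of 5.45 and a range of 2.00 to 9.48, and the count of 32 was the same with copies summed. Mki67, which coats mitotic chromosomes and marks dividing cells, read 939, 600, 688 and 749 in germinal centre and 0, 0 and 0.08 in naive libraries. For Top2a, the topoisomerase that untangles chromosomes, the values were 638, 495, 813 and 620 in germinal centre and 3.57, 1.29 and 1.94 in naive libraries (log2 difference 7.66, SE 0.33). Ccnb2, a cyclin of mitosis, read 306.6, 237, 338 and 330.7 in germinal centre against 1.68, 0 and 3.71 in naive libraries (log2 difference 7.02, SE 0.66, and 6.41 without naive replicate 2). Among the largest differences were also Cenpe, a kinetochore motor, at 298, 163, 328 and 152 against 0.84, 1.65 and 0.93, and Hmmr, a spindle protein, at 139, 68.6, 93.2 and 168 against 0, 0 and 1.18.

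Of 34 compared genes of DNA replication and the G1/S phase, 25 were higher and none was lower (median 3.31), and with copies summed 21 were higher. Cdc6, which loads the replicative helicase, read 165, 119, 77.5 and 134 in germinal centre and was listed at 0 in all 3 naive libraries. Clspn, an adaptor of the replication checkpoint, read 73.4, 130, 89.8 and 96.0 in germinal centre and was also listed at 0 in all 3. Rfc4, a subunit of the clamp loader, read 273.5, 256, 288 and 370 in germinal centre and 4.77, 4.23 and 4.54 in naive libraries (log2 difference 5.74, SE 0.12). Of 13 genes of homologous recombination and the replication checkpoint, 9 were higher. Germinal centre replicate 2 was the lowest of its group for Rad51ap1, which stimulates strand exchange in recombination, at 62.9, 7.64, 36.4 and 93.4 in germinal centre against 0, 0 and 2.19 in naive libraries. Its log2 difference of 4.67 was 5.37 without germinal centre replicate 2.

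Promoters of the division genes are printed because their members moved together. They are RefSeq sequences on GRCm38.p6, running 250 bases before to 50 bases after a transcription start, in the direction of transcription. In the first 3 sequences capitals mark TTTGAA, the core of the cell cycle homology region, and CCAAT, the NF-Y box, as read along the strand shown. In the last 2 they mark a match to the E2F letters TTTGGCGC or TTTCCCGC, which lies on the opposite strand and so reads reversed and complemented. The motifs do not overlap one another in these windows. Cdc20, Plk1 and Mcm5 were chosen as examples after their values were seen.
Ccnb2 (chr9:70421505-70421804, minus strand): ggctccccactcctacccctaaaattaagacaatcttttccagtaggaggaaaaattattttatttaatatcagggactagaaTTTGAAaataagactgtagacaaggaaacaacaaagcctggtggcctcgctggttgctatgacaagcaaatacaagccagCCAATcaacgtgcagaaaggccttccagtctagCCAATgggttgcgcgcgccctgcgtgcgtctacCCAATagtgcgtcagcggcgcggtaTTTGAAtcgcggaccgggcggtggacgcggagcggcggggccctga
Cdc20 (chr4:118437294-118437593, minus strand): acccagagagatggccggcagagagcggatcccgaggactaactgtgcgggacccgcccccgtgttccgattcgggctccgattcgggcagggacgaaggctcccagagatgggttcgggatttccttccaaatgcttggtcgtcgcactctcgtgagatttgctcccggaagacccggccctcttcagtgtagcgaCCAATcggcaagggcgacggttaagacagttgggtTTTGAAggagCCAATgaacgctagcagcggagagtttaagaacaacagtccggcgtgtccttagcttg
Plk1 (chr7:122159185-122159484, plus strand): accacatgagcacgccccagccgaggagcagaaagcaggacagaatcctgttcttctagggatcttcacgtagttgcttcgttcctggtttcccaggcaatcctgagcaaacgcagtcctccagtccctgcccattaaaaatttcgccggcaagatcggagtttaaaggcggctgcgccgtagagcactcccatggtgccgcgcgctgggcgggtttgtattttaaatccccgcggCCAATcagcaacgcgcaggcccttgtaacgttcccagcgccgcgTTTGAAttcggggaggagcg
Mcm5 (chr8:75109259-75109558, plus strand): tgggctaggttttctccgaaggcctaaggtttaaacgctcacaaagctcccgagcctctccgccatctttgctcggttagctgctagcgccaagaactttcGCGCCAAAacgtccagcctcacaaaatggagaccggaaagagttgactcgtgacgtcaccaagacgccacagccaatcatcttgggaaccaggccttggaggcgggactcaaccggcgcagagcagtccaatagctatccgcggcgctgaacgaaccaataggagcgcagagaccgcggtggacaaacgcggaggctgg
Cdc6 (chr11:98907901-98908200, plus strand): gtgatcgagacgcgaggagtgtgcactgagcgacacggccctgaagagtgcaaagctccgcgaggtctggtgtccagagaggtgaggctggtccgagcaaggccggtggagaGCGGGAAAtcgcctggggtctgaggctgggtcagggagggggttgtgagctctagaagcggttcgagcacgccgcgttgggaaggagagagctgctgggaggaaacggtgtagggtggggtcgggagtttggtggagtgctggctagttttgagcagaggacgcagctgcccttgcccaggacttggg

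Cdc20, the activator of the anaphase-promoting complex, read 257.7, 113, 190 and 194 in germinal centre and 4.84, 3.80 and 8.42 in naive libraries. Plk1, a mitotic kinase, read 92.1, 50.6, 49.8 and 73.6 against 0, 4.30 and 3.06, and Mcm5, a helicase subunit, read 173, 114, 151 and 233 against 22.3, 5.81 and 31.6. Searched on both strands, TTTGAA was in 23 of 29 promoters of 27 G2/M genes (79.3%) and in 13.1% of 8011 promoters of the compared genes in the table. CCAAT was in 25 of the 29 (86.2%) against 38.7% of all, and both motifs were in 22 (75.9%) against 5.48% of all. The E2F letters were in 11 of 35 promoters of 29 G1/S genes (31.4%), in none of the 29 G2/M promoters and in 3.22% of all. The list shares follow from which compared genes are in a list, not from their values. In 820 promoters of genes called higher, TTTGAA was in 17.6%, CCAAT in 44.4%, both in 10.5% and the E2F letters in 6.10%. In 541 promoters of genes called lower the shares were 11.3, 35.7, 2.59 and 2.03%. A match describes the letters only and is no evidence of binding in these cells.

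Zone-associated genes split. Among 12 genes linked to the dark zone, 7 passed the 4-fold rule upward and 0 downward (median 4.13, and 3.92 with copies summed), but the higher ones included the division genes Ccnb2 and Hmmr together with Gcsam. Cxcr4, the receptor that draws cells to the dark zone, read 14.3, 17.3, 27.5 and 28.9 in germinal centre and 49.6, 28.3 and 60.1 in naive libraries, which overlapped. Foxo1, a transcription factor of the dark zone, overlapped too, at 107, 93.7, 149 and 97.9 against 118, 161 and 123. Of 22 light zone and activation genes none was higher and 4 were lower (median -0.50), beside 10.1% higher and 12.1% lower among all compared genes. The 4 were Egr3, Nr4a1, Gpr183 and Cd69, with log2 differences of -4.12, -2.80, -2.18 and -2.06. Gpr183 is described again with the positioning receptors. Without germinal centre replicate 4, Gpr183 and Cd69 passed under the 4-fold line, at -1.96 and -1.94. Cd69 also did so without germinal centre replicate 1, at -1.99, and without naive replicate 2, at -1.92. Cd83 read 1166, 1065, 1218 and 761 in germinal centre and 1437, 1705 and 1257 in naive libraries, and Cd86, a ligand for T cell CD28, read 274.02, 191, 247 and 245 against 116, 101 and 92.4, a log2 difference of 1.20 (SE 0.14) that is under the 4-fold line. Myc, which drives growth after positive selection, read 77.1, 94.7, 77.5 and 102 in germinal centre and 214, 205 and 173 in naive libraries (log2 difference -1.16, SE 0.14).

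Genes that keep naive B cells recirculating and resting were low in germinal centre cells. Of 29 follicular naive and quiescence genes 15 were lower and none higher, with a median log2 difference of -2.09, and with copies summed 14 were lower. S1pr1, the receptor for exit from lymphoid tissue, read 43.0, 121, 19.4 and 22.7 in germinal centre and 575, 582 and 452 in naive libraries (log2 difference -3.73, SE 0.60). Klf2, a transcription factor that sustains S1pr1 in lymphocytes, read 12.7, 28.1, 10.5 and 26.8 against 280.6, 111 and 190 (log2 difference -3.27, SE 0.52). Fcer2a, the low-affinity IgE receptor CD23, read 45.1, 89.7, 66.5 and 71.2 against 1494, 1277 and 1239 (log2 difference -4.31, SE 0.22). No germinal centre library reached the naive range for any of these 3.

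Receptors that position B cells were mostly lower. Of 12 chemoattractant and positioning receptors 8 were lower and 2 higher, S1pr2 and Cxcr3. Ccr7, which draws B cells toward the T cell zone, read 54.3, 85.3, 74.7 and 0 in germinal centre and 962, 767 and 810 in naive libraries. Its log2 difference of -5.10 (SE 1.55) was -3.57 without germinal centre replicate 4, where it was listed at 0. Cnr2, a cannabinoid receptor, and S1pr4, a sphingosine phosphate receptor, were likewise each listed at 0 in 1 germinal centre library, at 62.1, 48.5, 0 and 67.1 against 607, 512 and 468 for Cnr2. S1pr4 read 0, 31.0, 10.9 and 3.05 in germinal centre and 182, 143 and 130 in naive libraries. The log2 difference was -4.62 for Cnr2, or -3.14 without germinal centre replicate 3, and -4.59 for S1pr4, or -3.71 without replicate 1 and -5.38 without replicate 2. Cxcr5, the follicle-homing receptor, read 210, 168, 218 and 150 against 979, 604 and 826 (log2 difference -2.09, SE 0.24), and Gpr183, an oxysterol receptor, read 92.7, 150, 108 and 62.4 against 425, 476 and 447 (log2 difference -2.18, SE 0.26). Both passed under the 4-fold line without germinal centre replicate 4, at -1.99 and -1.96, and Cxcr5 also without naive replicate 1, at -1.93. Cxcr3, also a receptor of T cells, read 27.6, 65.1, 34.7 and 77.8 in germinal centre and 4.73, 0 and 3.12 in naive libraries, beside the higher T cell marker sums. Cxcr3 had a log2 difference of 4.06, or 3.30 without naive replicate 2.

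Immediate early genes, which are transcribed within minutes of stimulation or of tissue handling, were all lower in mean. Of 15 compared, 13 were called lower and none higher, with a median log2 difference of -3.14 and a range of -6.53 to -2.0, and with copies summed 12 were lower. Fos, a subunit of the AP-1 factor (mm10 chromosome 12, 85473890 to 85477273, plus strand), read 51.5, 50.8, 83.7 and 91.1 in germinal centre and 1688, 1399 and 1414 in naive libraries (log2 difference -4.46, SE 0.24). Junb, a second AP-1 subunit, read 8.76, 40.0, 12.5 and 25 against 2260, 1090 and 1466 (log2 difference -6.31, SE 0.56). Jun read 46.6, 53, 0.20 and 13.5 against 1653, 997 and 1456, with a log2 difference of -6.53, or -5.33 without germinal centre replicate 3 and -7.16 without replicate 2. The stress chaperone Hspa1a showed the same direction, at 32.8, 67.8, 1.31 and 8.19 in germinal centre and 3191, 1805 and 5642 in naive libraries, and its log2 difference of -7.74 was -6.85 without germinal centre replicate 3 and -8.48 without replicate 2. Zfp36, which speeds decay of cytokine messages, read 101, 115, 66.4 and 64.4 against 2144, 1740 and 1517. The sorting times of the 2 cell types are not given, and the part of handling was not tested.

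B cell identity lists had few called members, beside 10.1% higher and 12.1% lower among all compared genes. Of 22 B lineage transcription factors 1 was higher and none lower (median -0.56). Pax5, which maintains B cell identity, read 271, 121, 171 and 170 in germinal centre and 235.15, 255 and 204 in naive libraries, and Bach2, a repressor of plasma cell differentiation, read 149, 72.9, 183 and 84.7 against 181, 276.3 and 151, and both overlapped. Id2, an inhibitor of E proteins, was the gene called higher, at 149, 275.2, 103 and 180 against 47.5, 26.8 and 34.2. Its log2 difference of 2.20 was 1.96 without germinal centre replicate 2, the library with the highest T cell marker sum. Of 30 genes of B cell receptor signalling 2 were higher, Fyn, a Src-family kinase, and Pik3ap1, an adaptor for phosphoinositide 3-kinase. Of 13 genes of MHC class II presentation 1 was lower, H2-Oa, a subunit of the peptide-exchange modulator H2-O, at 238, 71.1, 95.3 and 103 in germinal centre against 474, 482 and 481 in naive libraries. The difference of -2.07 on the log2 scale was -1.84 without germinal centre replicate 2 and -1.98 without replicate 3.

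Of 15 plasma cell genes 5 were higher and none lower (median 0.82), beside 10.1% higher and 12.1% lower among all compared genes. The sum of 8 plasma cell markers was 1322 to 1809 in germinal centre and 726 to 849 in naive libraries. Xbp1, a driver of secretory capacity, read 374, 567, 597 and 555 in germinal centre and 337, 266 and 278 in naive libraries, a log2 difference of 0.82 (SE 0.19). Creld2, an endoplasmic reticulum protein of the stress response, read 65.1, 282.4, 263 and 147 against 14.3, 19.9 and 15.3, and Hsp90b1, a chaperone of the same compartment, read 747, 1693, 1887 and 771 against 234.2, 173 and 201. Prdm1, which fixes plasma cell fate, averaged under 10 over the 7 libraries and was not compared, at 7.19, 22.7, 0 and 0.88 in germinal centre against 0, 0.29 and 0.08 in naive libraries. Irf4, which acts in both germinal centre and plasma cells, read 30.6, 15.0, 51.3 and 19.6 against 91.8, 51.5 and 81.6.

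Survival and growth regulators had few called members, beside 10.1% higher and 12.1% lower among all compared genes. Of 18 BCL2 family and apoptosis genes 1 was higher, the gate marker Fas, and 1 lower, Bcl2, which blocks mitochondrial death. Bcl2 read 29.7, 100, 38.8 and 0 in germinal centre and 143, 238 and 192 in naive libraries, and its log2 difference of -3.33 (SE 1.47) was -1.92 without germinal centre replicate 4, outside the 4-fold rule, and -4.14 without replicate 2. In the phosphoinositide 3-kinase, Akt and mTOR list, 1 of 20 was higher, Pik3ap1 at 215, 77.6, 65.2 and 92.8 in germinal centre against 21.9, 23.9 and 21.1 in naive libraries. Without germinal centre replicate 1 its log2 difference of 2.12 was 1.76. The 1 lower was Pik3cg. Of 24 interferon-stimulated genes none was called in either direction (median 0.01).

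**Figure D3:**
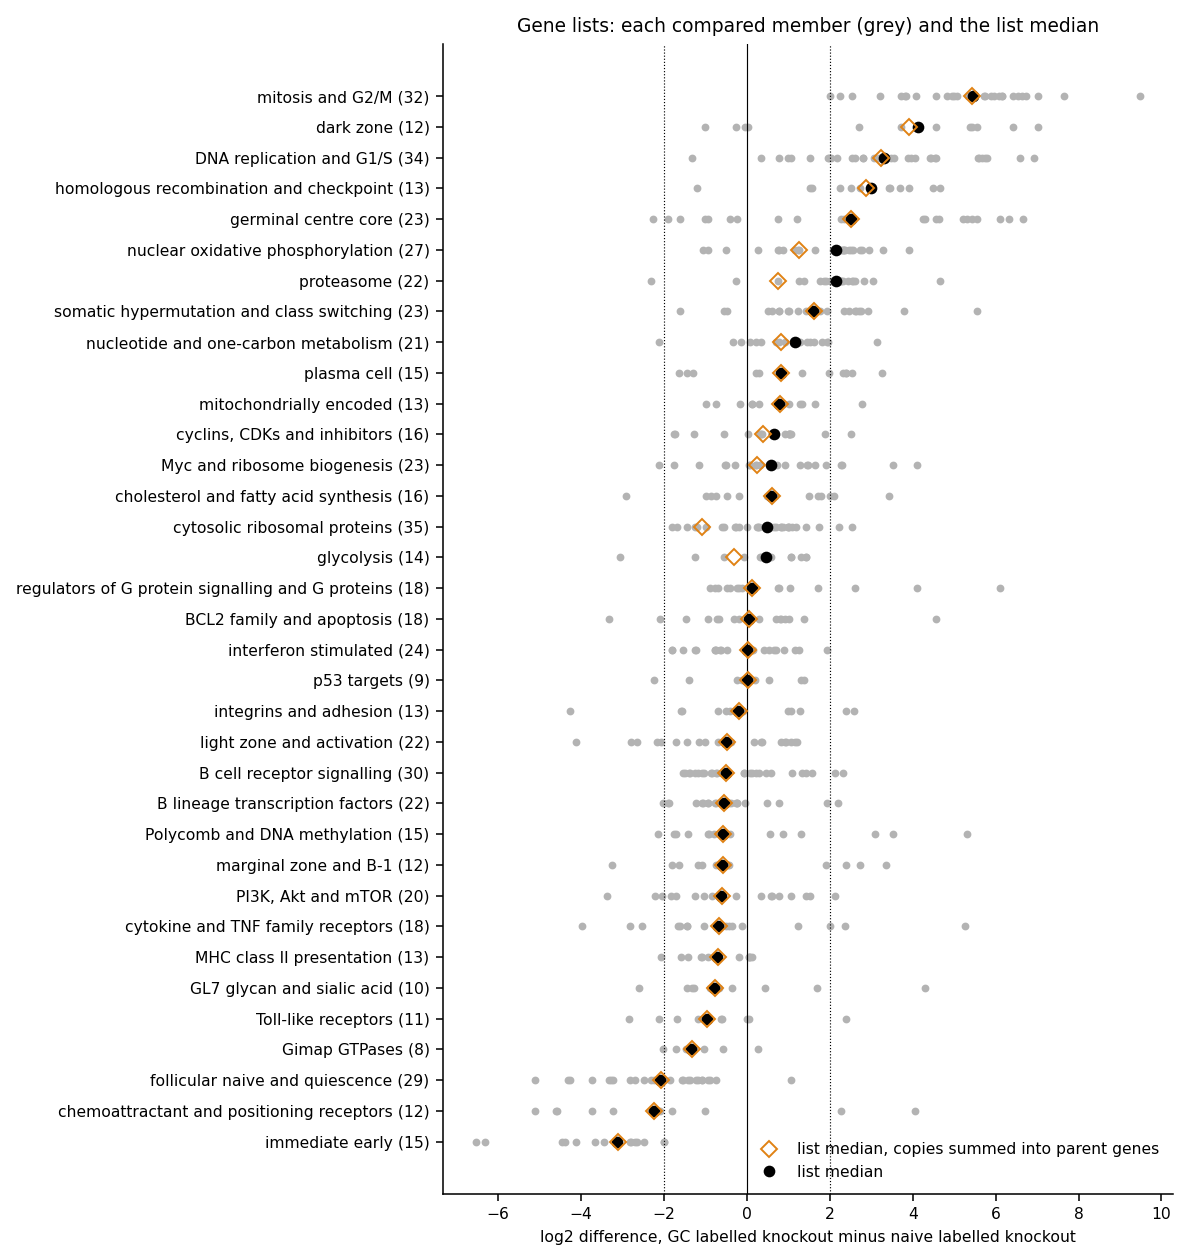
Log2 difference of germinal centre minus naive B cells for 35 gene lists. Grey points are compared members (their number in brackets), black circles list medians with rows as deposited, open diamonds medians with copies summed, and dotted lines the 4-fold limits. The G2/M median of 5.45 is the highest and the immediate early median of -3.14 the lowest. Circle and diamond part most for the oxidative phosphorylation, proteasome and ribosomal protein lists.

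Metabolic and protein-turnover lists depended on how copies were counted. Among all compared genes 10.1% were higher and 12.1% lower as deposited, and 9.95% and 7.49% with copies summed. Of 27 nuclear oxidative phosphorylation genes 16 were higher with rows as deposited (median 2.14) and 10 with copies summed (median 1.25). Sdhb, a subunit of succinate dehydrogenase, kept its difference, at 626, 548, 682 and 785 in germinal centre and 39.4, 45.6 and 43.8 in naive libraries, a log2 difference of 3.90 (SE 0.12) and of 3.92 with copies summed. Atp5o, a subunit of ATP synthase, read 302, 308, 380 and 358 against 33.6, 37.9 and 29.2 as deposited, a log2 difference of 3.29, and -0.05 with copies summed. Of 13 genes encoded by mitochondrial DNA 1 was higher, mt-Atp8, at 1353, 1678, 1732 and 1500 against 214, 242 and 222.4.

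The proteasome list behaved likewise, with 13 of 22 higher and 1 lower as deposited (median 2.14) and 6 higher and 1 lower with copies summed (median 0.75). Psmb7, a catalytic subunit, had a log2 difference of 3.04 as deposited and 3.06 with copies summed, while Psme2, a subunit of the proteasome activator, had 4.65 and -0.01. Of 35 cytosolic ribosomal proteins 2 were higher as deposited with a median of 0.47, whereas 1 was higher and 3 were lower with copies summed and the median was -1.09, so the direction of this list changed with the counting of copies. Glycolysis genes gave no direction either, with 1 of 14 lower, the glucose transporter Slc2a1 (log2 difference -3.06, or -3.78 without germinal centre replicate 3 and -2.37 without replicate 4), and a median of 0.47 that was -0.32 with copies summed. Of 23 Myc and ribosome biogenesis genes 4 were higher and none lower as deposited (median 0.58), and 3 were higher and 1 lower with copies summed (median 0.25). Among the higher genes was Nop58, a nucleolar protein, at 270, 289, 342.2 and 309 in germinal centre and 25.5, 26.8 and 23.8 in naive libraries, with a log2 difference of 3.52 in rows as deposited and 3.54 with copies summed.

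**Figure D4:**
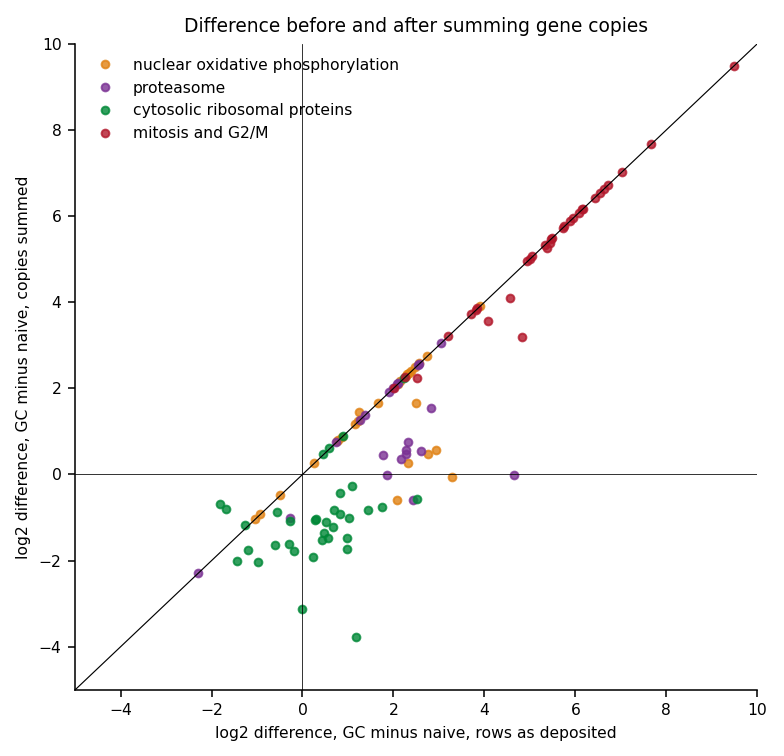
Log2 difference of germinal centre minus naive B cells with rows as deposited (x axis) and with copies summed into parent genes (y axis) for the members of 4 lists. Points on the diagonal did not move. Most G2/M genes lie along it, while many ribosomal protein, proteasome and oxidative phosphorylation genes fall below it, including Psme2 at 4.65 as deposited and -0.01 with copies summed.

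The genes with the largest lower differences included intronless copies. Aldoart1, an intronless copy of the aldolase gene Aldoa, read 5.10, 3.48, 3.32 and 1.63 in germinal centre and 474, 407 and 434 in naive libraries, and Aldoart2 read 0.36, 0.55, 0.54 and 0.53 against 110, 91.7 and 96.5. Prdx6b, Pin1rt1, Csl and Papolb were also among the 15 largest and were under 1.1 in every germinal centre library. Prdx6b, Pin1rt1 and Papolb were not summed into another gene, and with copies summed elsewhere they were still lower, at -5.81, -5.51 and -5.37. The split of reads between intronless copies and their parent genes is uncertain, and its cause was not tested. Over 3 spleen tables, with splenic antibody-secreting cells added, 635 of the lower genes (59.6% of 1065 listed in all 3) had all 7 libraries of the germinal centre table, either label, below all 9 of the other tables, as did 9.62% of all compared genes. All 7 lay above for 549 of the higher genes (61.8% of 888), as for 12.7% of all compared genes. For these genes cell type and table cannot be told apart. The labelled-knockout libraries that defined the calls are part of this count, so the larger shares among called genes are partly built in.

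The libraries labelled wild type gave 1002 higher (11.2% of 8908) and 1206 lower genes (13.5%) by the same rule. Of the 888 genes higher in the labelled knockout, 485 were also higher in the labelled wild type, which is 54.6% of the first list and 48.4% of the second. Of the 1065 lower genes, 712 were shared, 66.9% and 59.0% of the lists. Each genotype label has its own libraries, but both use the same pair of tables, so a difference between the tables enters both lists.

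Whether the germinal centre minus naive difference depended on the labelled genotype was tested with limma across 13 libraries, in which a constant offset of either table cancels. Of 8947 genes tested, 399 (4.46%) had a higher and 251 (2.81%) a lower difference in the labelled knockout at a Benjamini-Hochberg adjusted p under 0.05. None of the 32 G2/M genes, of the 35 G1/S genes or of the 13 recombination genes passed, and Mki67 had a difference between labels of 2.61 (SE 1.23, limma adjusted p = 0.258). In the germinal centre list, 14 of 23 were higher and 1 lower. Bcl6, for example, averaged 36.9 ± 8.16 and 6.76 ± 5.49 in labelled-knockout germinal centre and naive libraries, against 1.17 ± 0.65 and 9.93 ± 2.13 in labelled-wild-type germinal centre and naive libraries (4.86, SE 0.74, limma adjusted p = 0.00167).

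Fcer2a went the other way, at 68.1 ± 18.3 in germinal centre and 1337 ± 137 in naive libraries labelled knockout, against 2209 ± 439 in germinal centre and 1333 ± 160 in naive libraries labelled wild type (-5.03, SE 0.29, limma adjusted p = 1.31e-06). Light zone and activation genes were lower in 10 of 22 and higher in 1, and Cd83 had a difference between labels of -1.60 (SE 0.24, limma adjusted p = 0.00152). Of 24 interferon-stimulated genes 9 were higher and none lower, of 13 MHC class II genes 6 were lower and none higher, and of 19 genes of the phosphoinositide 3-kinase list none passed. T cell markers were higher in 13 of 16 and macrophage markers in 4 of 13. Marker sums in the germinal centre libraries moved with these results, and their part in them was not tested. Germinal centre markers summed to 2663 to 3639 in labelled-knockout and 295.1 to 328 in labelled-wild-type germinal centre libraries. The gate marker Fas, at 234.01 to 315 in the labelled knockout, made up most of the labelled-wild-type sums. It read 248, 233 and 257 there, of sums of 317, 295.1 and 328. Rgs13, Gcsam and S1pr2 were at 0 in each of these labelled-wild-type libraries. The same markers summed to 62.1 to 70.4 in naive libraries labelled wild type. T cell markers summed to 1557 to 3026 in labelled-knockout and 101 to 183 in labelled-wild-type germinal centre libraries, and plasma cell markers to 1322 to 1809 in labelled-knockout and 5601 to 7977 in labelled-wild-type germinal centre libraries. The naive libraries gave closer sums, with T cell markers at 99.6 to 115 in labelled-knockout and 94.8 to 151 in labelled-wild-type libraries. The test compares the libraries as deposited.

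**Figure D5:**
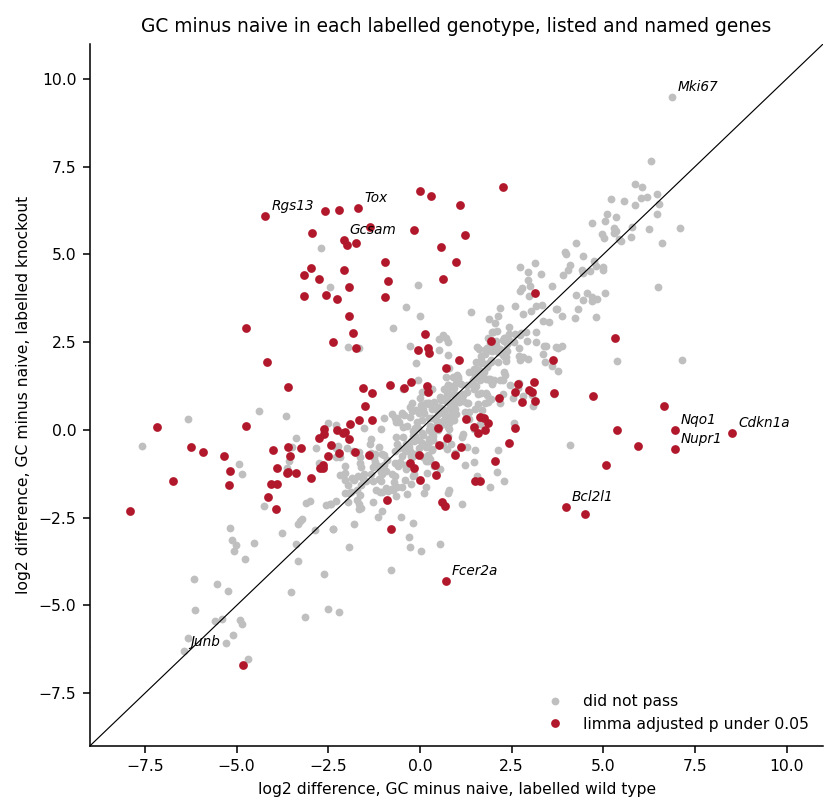
Germinal centre minus naive log2 difference in libraries labelled knockout (y axis) against libraries labelled wild type (x axis) for 678 listed and named genes. Red points, 143 in number, passed the limma test of the difference between labels and grey points did not, and the line marks equal differences. The counts include genes past the left edge, which are not drawn. Among them are Fos, Hspa1a and Hspa1b, at -10.59, -9.61 and -9.11 in the labelled wild type. Rgs13 and Gcsam lie far above the line, Fcer2a and Cdkn1a far below it, and Junb close to it.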

How the data were processed

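RNA from sorted cells was sequenced and, per the submitters' processing notes, aligned with STAR to mm10. Which counter, annotation and strand setting were used is not given in the sources used here. Reads of genes that overlap, lie antisense or have close copies may therefore be divided unevenly. The authors deposited CPM, each column summing to 1000000, in a separate table for each cell type. An offset of 0.0001 had been added to every germinal centre value and was subtracted. Spreadsheet dates had replaced 19 gene names among the naive rows, which were left out. Values within 0.02 of a whole read made up 66.4 to 67.8% in germinal centre and 85.2 to 85.3% in naive libraries labelled knockout, so no count test was used, and precision beyond the spread between libraries was not estimated. No gene of the ribosomal protein and oxidative phosphorylation lists was at 0 in any of the 7 libraries.

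Samples were grouped by their titles. The germinal centre against naive difference came from no test. The difference between labelled genotypes was tested with limma 3.58.1 (lmFit, eBayes with trend, R 4.3.3) on log2(rescaled CPM + 1), with a pseudocount of 1 and a minimum mean of 10, and was tested on simulated data. For all other values and the figures Python 3.11.15, numpy 2.4.6, pandas 2.3.3 and matplotlib 3.10.9 were used. Copies were assigned with minimap2 2.31 on GENCODE M21 transcripts, at 90% identity and 50% coverage or more. Positions are from GENCODE on mm10. The labels do not say which libraries share a mouse, so p-values measure the spread between these samples.

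Genes named are 27 fixed genes, the 15 largest differences in each direction, up to 4 members of each of 35 lists with the largest differences, and the 8 largest differences between labels in each direction. The 15 and the 8 were taken among protein-coding genes reaching a mean of 50, without predicted genes and markers of other cells. Some genes that this rule names are not reported here. The members, the lists and the tests were chosen with earlier results of these data known. The table of splenic antibody-secreting cells served only to count genes set apart by table. The bone marrow table entered an earlier form of that count and gave no value reported here. Alternatives covered scaling, pseudocount, filter, fold limit, gene classes, gene copies, sample weights, a replicate block and leaving out libraries.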

Additional observations from a re-analysis of the deposited data

Results flagged for a closer look

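Among 133 sets of 4 germinal centre libraries for named genes and marker sums, 9 held a library far from the other 3 by Dixon's criterion. Sets with low values in all 4 libraries are in the 133 but were not examined. Chance gives such a library in about 1 examined set in 20. Replicate 2 was lowest for Nusap1, a spindle protein, at 146 rescaled CPM with the others at 239 to 254, and for the DNA methyltransferase Dnmt1, at 20.6 with the others at 136 to 151. The log2 difference of Dnmt1 between germinal centre and naive B cells was 3.52, or 4.21 without germinal centre replicate 2 and 2.66 without naive replicate 2. Replicate 2 was highest for the T cell marker sum, at 3026 with the others at 1557 to 1596. Replicate 1 was highest for the erythroid marker sum, at 3136 with the others at 33 to 354.4, and for Tmub1, a ubiquitin-like membrane protein, at 37.8 with the others at 0 to 3.87. Replicate 3 was highest for Rev3l, at 127 with the others at 54.3 to 57.1, and lowest for Rbl1, a retinoblastoma-family protein, at 57.1 with the others at 105 to 115. Replicate 4 was highest for Derl3, which acts in protein disposal at the endoplasmic reticulum, at 35.7 with the others at 11.1 to 14.5, and for Eed, a subunit of PRC2, at 322 with the others at 265 to 272.

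The germinal centre minus naive difference was higher in the labelled knockout than in the labelled wild type by 10.32 on the log2 scale for Rgs13, 8.46 for Ikzf2, 8.01 for Tox, 7.51 for Gcsam, 7.25 for Cd27, 7.14 for Izumo1r, 6.96 for Ms4a4b and 6.82 for Fcna, each past a limma adjusted p of 0.05. Rgs13, Gcsam and Tox were listed at 0 in all 3 germinal centre libraries labelled wild type, so their difference there was negative. Rgs13 read 30.3, 11.0 and 16.1 in naive libraries labelled wild type, and its germinal centre minus naive log2 difference was 6.10 in the labelled knockout and -4.22 in the labelled wild type. That log2 difference was 5.42 in the labelled knockout and -2.08 in the labelled wild type for Gcsam, and 6.33 in the labelled knockout and -1.68 in the labelled wild type for Tox. Ikzf2, Tox, Cd27, Izumo1r and Ms4a4b are also expressed by T cells, whose marker sums differed between the same libraries. Fcna, a ficolin of macrophages, read 346, 179, 73.1 and 110 in labelled-knockout germinal centre libraries and was at 0 in the 3 labelled wild type, and macrophage marker sums were 369 to 2993 in labelled-knockout and 132 to 271 in labelled-wild-type germinal centre libraries.

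The difference between labels was -8.60 for Cdkn1a, the cell cycle inhibitor p21, -7.52 for Nupr1, -6.96 for Nqo1, -6.91 for Slc2a6, -6.41 for P2rx3, -6.18 for Bcl2l1, -6.05 for Slc15a3 and -5.98 for Lilrb4a, each past a limma adjusted p of 0.05. Cdkn1a read 9.49, 9.76, 0 and 0 in germinal centre libraries labelled knockout and 635, 693 and 706 in those labelled wild type. Nqo1, an antioxidant enzyme, was listed at 0 in all 7 libraries labelled knockout and read 123, 146 and 104 in germinal centre libraries labelled wild type.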

How the results depend on the processing

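The counts of 888 higher and 1065 lower genes stayed within 1.5 times under every scaling, pseudocount and single left-out library. Single left-out libraries gave 904 to 933 higher and 997 to 1244 lower. Leaving out a library can only relax the no-overlap part of the rule, so counts with fewer libraries do not test stability under an equal rule. Without both germinal centre replicates 1 and 2, chosen after seeing the data, they were 957 and 1473. A 2-fold limit gave 1834 higher and 1693 lower, an 8-fold limit 405 and 632, and a minimum mean of 50 gave 480 and 331. The lower count was 1767 with a minimum mean of 1, 485 among genes protein coding in both tables and 595 with copies summed, and the corresponding higher counts were 989, 866 and 791. Copies summed reversed Atp5o (-0.0516) and Psme2 (-0.00773), and the cause was not tested. In the other values of named genes across settings, 1489 kept direction and side of the 4-fold rule and 62 kept direction but not side. Members of lists called higher were 145 to 152 and lower 40 to 49 without 1 library. The median of all genes was -0.18 with median-of-ratios scaling, which gave 784 higher and 1201 lower genes, -0.02 as reported and -0.03 with values as deposited. For the difference between labels, single left-out libraries gave 291 to 411 higher and 175 to 348 lower genes. Replicate numbers are shared between groups, and deviations of same-numbered libraries correlated at -0.02 to 0.05. These correlations cannot decide whether such libraries share a mouse, because cell type and table differ within each pair. With a replicate block 270 genes were higher and 184 lower, against 399 and 251 without it.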

Other observations

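Further genes were far apart between germinal centre and naive B cells of the labelled knockout. Rgs10 and Rgs1, which like Rgs13 shorten G protein signals, were both higher. Rgs10 read 98.8, 82.6, 58.3 and 91.8 rescaled CPM in germinal centre and 5.99, 3.08 and 2.86 in naive libraries, and Rgs1 read 113, 102, 74.7 and 151 against 8.94, 23.2 and 22.0. They were 2 of the 3 higher genes among 18 regulators of G protein signalling and G proteins, with none lower. Of 15 Polycomb and DNA methylation genes 3 were higher, Ezh2, Eed and Dnmt1, and 1 lower. Among all compared genes 10.1% were higher and 12.1% lower. Eed read 265, 268, 272 and 322 in germinal centre and 26.5, 39.1 and 31.3 in naive libraries. Cbx7, a subunit of Polycomb complex PRC1, was the lower one, at 23.2, 16.0, 7.03 and 21.5 against 98.6, 48.7 and 77.3, and its log2 difference of -2.14 was -1.80 without germinal centre replicate 3 and -1.92 without naive replicate 1.

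Of 18 cytokine and TNF family receptors 3 were lower, 1 was higher and 14 were not called, beside 12.1% lower and 10.1% higher among all compared genes. Il4ra, the interleukin-4 receptor alpha chain, read 8.70, 36.7, 15.7 and 27.9 in germinal centre and 183, 113 and 146 in naive libraries, and Ifnar1, a chain of the type I interferon receptor, read 18.7, 19.0, 5.56 and 0 against 141, 117 and 85.7 (log2 difference -3.99, and -3.04 without germinal centre replicate 4). Notch2, a receptor needed for marginal zone B cells, read 13.4, 6.61, 7.97 and 7.44 against 122, 88.7 and 68.8. Scd1, a fatty acid desaturase, read 176, 66.5, 161 and 103 against 943, 989 and 796, while Fdps, an enzyme of the cholesterol pathway, had a log2 difference of 3.43 as deposited and 1.07 with copies summed. Tbc1d4, a regulator of vesicle traffic, read 119, 185, 148 and 63.0 in germinal centre libraries and was listed at 0 in all 3 naive libraries.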
